A study of Homo sapiens with 18 samples.

Results

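The genes described here build ribosomes or make polyamines, and 43 were listed by name. They code for subunits of RNA polymerase I, small nucleolar ribonucleoproteins, factors that process ribosomal RNA and assemble the small and the large subunit, other nucleolar proteins, and enzymes of polyamine synthesis. Each gene was represented by its brightest probe set, the one with the highest mean over all arrays. Of the 43 genes, 36 were measured, and all 36 passed the filter on dim genes, among 14130 genes tested of 19775 on the array. NOP56, BOP1, PPAN and DKC1 had only probe sets annotated to several genes, and GNL3, DDX18 and EBNA1BP2 had no listed probe set, so these 7 genes have no values here.

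Ribosomes are made in the nucleolus. RNA polymerase I transcribes a long precursor RNA there, small nucleolar ribonucleoproteins guide its cleavage and modification, and a large set of assembly factors fold it and join it with ribosomal proteins into the small and large subunits. The transcription factor MYC, which drives growth, is known to bind and activate many of the genes for these steps, together with ODC1, the rate-limiting enzyme of polyamine synthesis. MYC binds DNA with its partner MAX at the E-box CACGTG, and the MXD proteins compete with MYC for MAX.

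The BRAF-mutant melanoma lines SKMEL5, WM2664 and A375 were treated with A-485 or with its vehicle DMSO for 6 h or 24 h. A-485 blocks the acetyltransferase activity of p300 and CBP, coactivators that acetylate histones at enhancers and promoters. There were 18 arrays, with DMSO in duplicate and A-485 on 1 array for every line and time, and the dose was labelled 3.0 mM throughout, a unit that was not checked. The series text says that it holds both sensitive and resistant lines but not which line is which. The labels do not say whether DMSO replicates were separate cultures, so the p-values measure the spread between these arrays, which may be technical.

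Values are Affymetrix HG-U133 Plus 2.0 intensities, scaled here so that all arrays share 1 distribution, with a floor of 32. Differences are on the log2 scale, A-485 minus DMSO, given ± SE from limma, and "called" means an adjusted p under 0.05 after Benjamini-Hochberg correction over all genes tested. Every A-485 group is a single array whose spread was taken from the DMSO pairs, and the number of arrays limits the precision: the median SE over genes was 0.13 for a single line and time and 0.08 for a mean over lines. Shared scaling hides any shift common to most genes, and in bulk RNA fewer cells of a kind and less RNA per cell cannot be told apart.

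DMSO replicates correlated across genes at 0.990 to 0.994. Transcripts specific to another line stood above background on 3 DMSO arrays, at 1.64% of the SKMEL5 level on WM2664 replicate 1 of 6 h, 0.73% of the SKMEL5 level on A375 replicate 1 of 6 h and 0.51% of the A375 level on WM2664 replicate 2 of 24 h. Counts without these 3 arrays, an alternative chosen after seeing the data, stand beside the results they moved by over 1.5 times. Of 6 melanocyte markers measured, all were bright in SKMEL5 and WM2664, with sums of 35580 to 45870 and of 14100 to 28870 per array. In A375 the sum was 455.9 to 1909, and the median levels of MLANA, TYR and TYRP1 over its arrays were at the floor. Among 6 leukocyte markers, 5, 5 and 3 were at the floor on every array of SKMEL5, WM2664 and A375. Of 8 fibroblast markers, 4, 3 and 4 were at the floor on every array, with sums of 4167 to 5547, 3088 to 5822 and 415.7 to 645.3, led by LUM in SKMEL5 (median 4166 over its arrays) and COL1A2 in WM2664 (2873). Of 8 keratinocyte and epithelial markers, 4, 6 and 4 were, with sums of 676.3 to 1137, 374.9 to 524.4 and 5316 to 8162, led in A375 by KRT18 (5514). Of the other checks of the treatment, MITF, the melanocyte transcription factor, fell by 1.69 ± 0.05 at 6 h as a mean over lines, and EP300 and CREBBP, the genes for p300 and CBP, rose by 0.37 ± 0.11 and 0.46 ± 0.09 as such means. In A375 at 6 h neither was called, with differences of 0.02 and 0.03 against 0.54 and 0.72 in SKMEL5 and 0.55 and 0.65 in WM2664.

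MYC fell in every line at both times. In SKMEL5 it read 2089 and 2058 in DMSO and 196 with A-485 at 6 h, and 2343 and 2385 against 458 at 24 h. In WM2664 the readings were 2130 and 2177 against 124 at 6 h, and 2105 and 2109 against 199 at 24 h. In A375 they were 608 and 569 against 85.0 at 6 h, and 488 and 564 against 149 at 24 h. Every A-485 array lay far below both of its DMSO arrays, and A375 started from the lowest level. As a mean over lines MYC stood at 9.23% of its DMSO level at 6 h (-3.44 ± 0.05, adjusted p 6.79e-08) and at 17.3% at 24 h (-2.53 ± 0.05, adjusted p 1.65e-07), so the fall was smaller at 24 h by 0.91 ± 0.07 (adjusted p 0.000180). The fall was also smaller in A375 than in the mean of the other lines, by 0.97 ± 0.10 at 6 h and 1.07 ± 0.10 at 24 h.

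At 6 h, 13 of the 36 genes were lower and none higher in SKMEL5, where 9.33% of all genes tested were called lower. In WM2664, 12 were lower and 1 higher, where 10.7% of all genes were lower and 14.8% higher. In A375 limma called none of the 36 in either direction, although 6.86% of all genes were lower and 5.86% higher. There 0 of the 36 had an unadjusted p under 0.05, and the count was 0 in every alternative run. The medians of the 36 differences were -0.17 in SKMEL5, -0.15 in WM2664 and 0.03 in A375, against 0 for all genes in each. The A-485 array lay below both DMSO arrays for 26 genes in SKMEL5 (29.2% of all genes did), 24 in WM2664 (28.9%) and 9 in A375 (26.6%). It lay above both for 6 in SKMEL5 (41.2% of all genes), 10 in WM2664 (41.5%) and 18 in A375 (41.4%). The largest falls at 6 h were those of NOP16 in SKMEL5 (-0.88 ± 0.06) and of BYSL in WM2664 (-1.18 ± 0.10).

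At 24 h, 27 genes were lower in SKMEL5 (15.1% of all genes), 21 in WM2664 (14.6%) and 8 in A375 (8.39%), and none was higher in any line (20.1%, 17.6% and 9.05% of all genes were), with 0, 1 and 0 higher at an unadjusted p under 0.05. The medians were -0.57, -0.37 and -0.17, again against 0 for all genes. The A-485 array lay below both DMSO arrays for 33 genes in SKMEL5 (30.8% of all genes), 31 in WM2664 (31.5%) and 28 in A375 (29.8%), and above both for 0 (41.1%), 3 (40.2%) and 1 (39.3%). Only NOLC1, TSR1, NOP16, WDR12 and MRTO4 were called lower in all 3 lines at 24 h, and 2.05% of all genes were. No member was lower in all 3 lines at 6 h, against 2.23% of all genes.

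These counts depended on the scaling and, in places, on 1 array. With the values taken as deposited, the 6 h counts called were 0 in SKMEL5 and 1 in WM2664, and the 24 h counts were 9, 0 and 0 in SKMEL5, WM2664 and A375. At 6 h that setting moved the median of all genes up, to 0.28 for SKMEL5 and 0.39 for WM2664, and the median of the 36 genes relative to it was -0.16 in SKMEL5 and -0.15 in WM2664. WM2664 at 6 h had 8 called genes without DMSO replicate 1 or without replicate 2 of that group, and 7 without the 3 arrays that carry another line's transcripts. A375 at 24 h had 5 called genes without its DMSO replicate 2, and 4 without those 3 arrays.

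**Figure D1:**
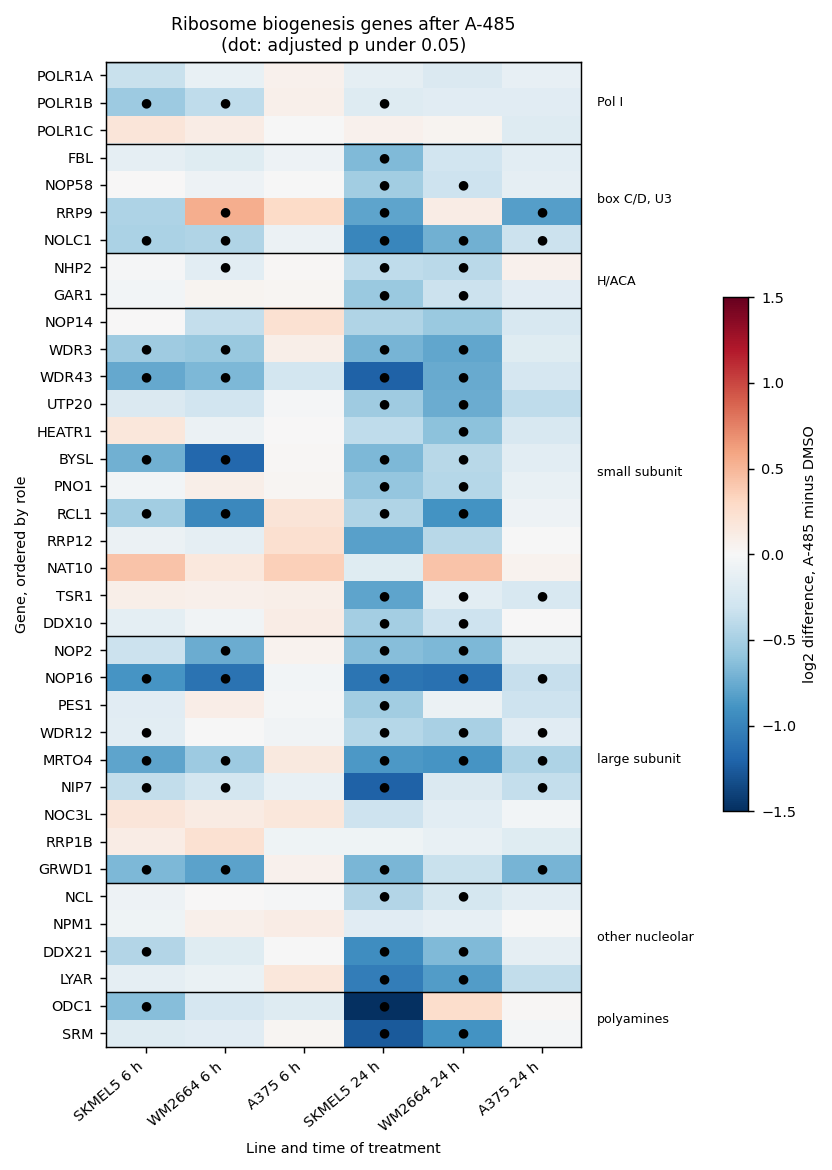
Log2 difference, A-485 minus DMSO, of the 36 measured genes (rows, ordered by role) in each line at 6 h and 24 h (columns), with blue for lower, red for higher and a dot at an adjusted p under 0.05. The A375 column at 6 h has no dot, and the SKMEL5 column at 24 h has 27.

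The promoters of the genes were read for the E-box that MYC and MAX bind, because the fall of the genes stood beside that of MYC. Windows of 300 bases, from 250 before to 50 after each start, came from RefSeq (GRCh38.p14), and the motif CACGTG, a palindrome that reads the same on both strands, was searched alone. Of the 32 tested members with a window, 18 held the motif in at least 1 window (56.2%), against 1398 of 11373 tested genes (12.3%). Over windows, 21 of 46 (45.7%) for the 37 listed members with any, measured or not, and 2548 of 35116 in all (7.26%) held it. NOLC1, NOP58, RRP12 and RRP1B had no window. The stretches shown run from 120 bases before to 30 after the start, with CACGTG in capitals. They were chosen to show ODC1, with 2 copies in the window shown, 4 genes that fell and hold 1 copy (WDR43, MRTO4, RCL1, DDX21), NAT10, which holds 1 copy and was not called, and NOP16, which fell furthest as a mean over lines and has no copy. ODC1 and DDX21 have 2 windows each, of which the one with the motif is shown, and the other window of each holds no copy. That other window is at the outer end of the gene, and the window shown is at a start inside the gene. LYAR and GAR1 likewise hold the motif only in a window at a start inside the gene.
ODC1 (chr2:10447983-10448132, strand -): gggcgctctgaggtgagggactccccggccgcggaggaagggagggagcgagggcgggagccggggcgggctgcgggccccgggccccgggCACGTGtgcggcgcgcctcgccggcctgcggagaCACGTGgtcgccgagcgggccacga
WDR43 (chr2:28894547-28894696, strand +): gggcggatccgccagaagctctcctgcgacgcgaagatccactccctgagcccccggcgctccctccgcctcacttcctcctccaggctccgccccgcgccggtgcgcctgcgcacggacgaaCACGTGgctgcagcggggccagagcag
MRTO4 (chr1:19251685-19251834, strand +): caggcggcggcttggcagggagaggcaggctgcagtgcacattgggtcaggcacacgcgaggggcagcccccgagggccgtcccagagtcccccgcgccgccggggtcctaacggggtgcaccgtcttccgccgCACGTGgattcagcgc
RCL1 (chr9:4792824-4792973, strand +): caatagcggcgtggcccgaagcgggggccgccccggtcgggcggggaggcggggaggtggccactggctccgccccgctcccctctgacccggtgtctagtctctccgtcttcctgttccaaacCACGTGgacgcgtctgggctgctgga
DDX21 (chr10:68956527-68956676, strand +): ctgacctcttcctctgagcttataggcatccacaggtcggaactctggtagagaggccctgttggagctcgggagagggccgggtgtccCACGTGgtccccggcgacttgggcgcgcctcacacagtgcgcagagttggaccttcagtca
NAT10 (chr11:34105509-34105658, strand +): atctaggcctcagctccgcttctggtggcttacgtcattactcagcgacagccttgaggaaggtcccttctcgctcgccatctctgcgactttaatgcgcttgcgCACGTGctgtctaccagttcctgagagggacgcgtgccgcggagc
NOP16 (chr5:176388569-176388718, strand -): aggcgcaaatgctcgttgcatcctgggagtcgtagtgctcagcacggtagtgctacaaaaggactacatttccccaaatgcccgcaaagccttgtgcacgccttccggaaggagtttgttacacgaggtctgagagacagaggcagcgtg
Members with and without the motif overlapped in their response. At 24 h, as a mean over lines, 15 of 18 genes with it were lower, with a median of -0.46, and 11 of 14 without it, with a median of -0.32. At 6 h, 8 of 18 with it were lower (median -0.12) and 6 of 14 without it (median -0.06). The match describes these letters in these windows, and MYC binding was not measured.

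Of the 3 measured members that are subunits of RNA polymerase I, POLR1B, a large catalytic subunit, was the one called. In SKMEL5 it read 846 and 782 in DMSO and 557 with A-485 at 6 h, and 789 and 813 against 699 at 24 h. In WM2664 it read 776 and 808 against 608 at 6 h and 749 and 734 against 657 at 24 h, while in A375 the readings were 1206 and 1171 against 1254 at 6 h and 1227 and 1241 against 1093 at 24 h. The A375 array with A-485 of 6 h was above its DMSO arrays and the other 5 A-485 arrays were below theirs. The falls were -0.55 ± 0.06 (adjusted p 0.000738) and -0.38 ± 0.06 (adjusted p 0.00271) in SKMEL5 and WM2664 at 6 h, and the mean over lines was -0.28 ± 0.03 at 6 h and -0.18 ± 0.03 at 24 h. A pair of dimmer POLR1B probe sets gave 0.06 and 0.04 as the mean at 6 h, and the SKMEL5 call at 24 h ended without DMSO replicate 2. POLR1A, the largest subunit, had mean differences of -0.13 ± 0.10 and -0.16 ± 0.10 at 6 h and 24 h, and POLR1C, which polymerase I shares with polymerase III, had 0.10 ± 0.06 and -0.03 ± 0.06. Neither was called in any line. A POLR1C probe set about as bright gave -0.37 in SKMEL5 and a mean of -0.21 at 24 h, against 0.06 and -0.03 for the brightest. The dimmer POLR1A sets gave 24 h means of -0.28 and -0.68, so these differences depended on the probe set.

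Among the proteins of the small nucleolar ribonucleoproteins, NOLC1, a nucleolar chaperone of these particles, was the one called lower at 6 h as a mean over lines. In SKMEL5 it read 1596 and 1737 in DMSO and 1197 with A-485 at 6 h, and 1739 and 1562 against 836 at 24 h. In WM2664 the readings were 1770 and 1831 against 1313, and 1526 and 1538 against 934. In A375 they were 3518 and 3533 against 3325, and 3330 and 3600 against 2772. The A-485 array was the lowest of its 3 arrays in each of these 6 groups of arrays, with the smallest gap in A375 at 6 h. The mean fall was -0.34 ± 0.05 at 6 h and -0.67 ± 0.05 at 24 h (adjusted p 3.24e-05), and the A375 call at 24 h (-0.32 ± 0.08, adjusted p 0.0368) ended without its DMSO replicate 2 or any of 6 DMSO arrays of other groups.

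The box C/D proteins FBL, the ribose methyltransferase fibrillarin, and NOP58, a core protein, were lower only at 24 h as a mean over lines (-0.37 ± 0.09 and -0.33 ± 0.03). NOP58 read 1860 and 1887 in DMSO and 1300 with A-485 in SKMEL5 at 24 h, 1858 and 1926 against 1521 in WM2664, and 3231 and 3336 against 2989 in A375. Each A-485 array was below both DMSO arrays, and the fall was called in SKMEL5 and WM2664. At 6 h the NOP58 differences were 0.00, -0.07 and -0.01 in SKMEL5, WM2664 and A375, all ± 0.05. The mean 24 h call of FBL ended without the SKMEL5 A-485 array of 24 h. RRP9, a protein of the U3 particle, was dim, with 32 and 34.4 in DMSO and 48.4 with A-485 in WM2664 at 6 h, so its called rise there (0.55 ± 0.15) lies near the floor and is not exact. That call ended without any 1 of 4 arrays, the DMSO pairs of WM2664 and A375 at 6 h. RRP9 was lower at 24 h in SKMEL5 (-0.79 ± 0.15) and A375 (-0.83 ± 0.15). The H/ACA proteins NHP2 and GAR1, core proteins of the particles that direct pseudouridylation, fell at 24 h by 0.24 ± 0.03 and 0.35 ± 0.05 on the log2 scale as means over lines, and their A375 differences at 24 h were 0.07 ± 0.05 and -0.17 ± 0.08. NHP2 was called lower in WM2664 at 6 h as well (-0.16 ± 0.05), which ended without any 1 of 7 DMSO arrays.

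Of 12 genes for processing and assembly of the small subunit, 4 were lower in SKMEL5 and 4 in WM2664 at 6 h, and they were WDR43, WDR3, BYSL and RCL1 in each. The WDR3 call ended in SKMEL5 without any 1 of 8 DMSO arrays and in WM2664 without either of its DMSO arrays. At 24 h, 8 were lower in SKMEL5, 9 in WM2664 and 1, TSR1, in A375. WDR43 and WDR3 are subunits of the small subunit processome, BYSL is a factor of small subunit maturation, and RCL1 is a nucleolar protein needed for early cleavage of the precursor RNA. BYSL read 438 and 437 in DMSO and 265 with A-485 in SKMEL5 at 6 h, 337 and 376 against 158 in WM2664, and 639 and 685 against 672 in A375. At 24 h the readings were 409 and 450 against 268, 286 and 263 against 205, and 603 and 568 against 523. The A375 array of 6 h lay between its DMSO arrays, and the others were below. In WM2664 the fall of BYSL was smaller at 24 h (-0.42 ± 0.10) than at 6 h (-1.18 ± 0.10), a difference of 0.75 ± 0.13 (adjusted p 0.0129).

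RCL1 in WM2664 read 185 and 195 in DMSO and 97.3 with A-485 at 6 h, and 195 and 202 against 107 at 24 h. In SKMEL5 it read 345 and 318 against 232, and 336 and 325 against 242, and in A375 648 and 734 against 788, and 647 and 665 against 624. The fall was about as deep at both times in SKMEL5 (-0.52 and -0.45) and in WM2664 (-0.96 and -0.89), all ± 0.08, and A375 at 6 h stood above both of its DMSO arrays (0.19 ± 0.08, adjusted p 0.221). WDR43 was lowest against DMSO in SKMEL5 at 24 h, with 729 and 921 against 354 (-1.21 ± 0.13), and its differences in A375 were -0.28 ± 0.13 and -0.25 ± 0.13, not called.

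Other small subunit factors were lower at 24 h only. PNO1, needed for late maturation, read 1182 and 1197 in DMSO and 795 with A-485 in SKMEL5 at 24 h, 798 and 835 against 606 in WM2664, and 1476 and 1513 against 1385 in A375. All 3 A-485 arrays were below their DMSO arrays, and the mean difference moved from 0.03 ± 0.03 at 6 h to -0.37 ± 0.03 at 24 h, a change of -0.40 ± 0.04 (adjusted p 0.000367). TSR1, an assembly factor related to translational GTPases, moved from 0.09 ± 0.03 to -0.40 ± 0.03. Its 6 h call was the only higher call among the means, ended without any 1 of 6 arrays of 6 h, and turned to -0.04 when all its probe sets were averaged. The mean 24 h differences of the processome proteins UTP20 (-0.55 ± 0.07) and HEATR1 (-0.41 ± 0.07) and of the helicase DDX10 (-0.27 ± 0.04) were called too, the last of these not without the SKMEL5 A-485 array of 24 h. NOP14, RRP12 and NAT10 were called in no line, and their SEs were among the widest, at 0.16, 0.17 and 0.11 for a mean. NAT10, the acetyltransferase of small subunit RNA, had the highest mean difference of the 36 genes at both times, 0.31 ± 0.11 at 6 h (adjusted p 0.0595) and 0.10 ± 0.11 at 24 h.

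Of 9 genes for the large subunit, 5 were lower in SKMEL5 and 5 in WM2664 at 6 h, and 7, 4 and 5 in SKMEL5, WM2664 and A375 at 24 h. NOP16, a nucleolar protein of large subunit assembly, read 1043 and 1083 in DMSO and 577 with A-485 in SKMEL5 at 6 h, and 980 and 982 against 458 at 24 h. In WM2664 it read 891 and 921 against 422, and 820 and 769 against 366. In A375 it read 2670 and 2735 against 2629, and 2588 and 2486 against 2001. NOP16 was the member with the largest mean fall at both times, -0.67 ± 0.03 at 6 h (adjusted p 8.46e-06) and -0.85 ± 0.03 at 24 h (adjusted p 1.97e-06), and at 6 h almost all of it lay in SKMEL5 and WM2664 (-0.88 and -1.10, against -0.04 ± 0.06 in A375).

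MRTO4, which holds the place of the ribosomal stalk protein on the immature large subunit, read 1021 and 894 in DMSO and 553 with A-485 in SKMEL5 at 6 h, 913 and 919 against 631 in WM2664, and 1668 and 2004 against 2022 in A375. At 24 h it read 762 and 660 against 390, 712 and 727 against 388, and 1694 and 1722 against 1236. In A375 the A-485 array was thus above both DMSO arrays at 6 h and below both at 24 h, where the call (-0.47 ± 0.13, adjusted p 0.0489) ended without any 1 of 8 DMSO arrays. A dimmer probe set of MRTO4 gave 0.05 in SKMEL5 at 24 h, against -0.86 ± 0.13 for the brightest.

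NIP7, a factor of large subunit maturation, fell by 1.21 ± 0.08 on the log2 scale in SKMEL5 at 24 h, from 299 and 331 to 136. In WM2664 it read 298 and 315 against 263 (-0.22 ± 0.08, not called), and the lines differed by 0.99 ± 0.11 (adjusted p 0.00122). A slightly dimmer NIP7 probe set gave -0.63 in SKMEL5 and -0.40 in WM2664 at 24 h, a smaller gap between these lines. GRWD1, a ribosome and histone chaperone, was lower in SKMEL5 (-0.68 ± 0.13) and WM2664 (-0.81 ± 0.13) at 6 h and in A375 (-0.70 ± 0.13) only at 24 h, where it read 566 and 540 in DMSO and 340 with A-485. WDR12 and PES1 belong to the PeBoW complex, whose other partner BOP1 was not measured. WDR12 fell at 24 h by 0.43, 0.49 and 0.17 in SKMEL5, WM2664 and A375 (all ± 0.04), though the A375 call ended without DMSO replicate 2. PES1 was lower in SKMEL5 at 24 h (-0.53 ± 0.16), a call that ended without any 1 of 10 DMSO arrays, and its mean call at 24 h ended without any 1 of 4 arrays. NOP2, a methyltransferase of large subunit RNA, had mean differences of -0.34 ± 0.10 and -0.50 ± 0.10, and its 6 h mean call ended without any 1 of 5 arrays. NOC3L and RRP1B were called in no line.

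Of 4 other nucleolar proteins, DDX21, LYAR and NCL fell at 24 h in SKMEL5 and WM2664 and NPM1 was not called. LYAR, a nucleolar protein that acts in ribosomal RNA processing, read 519 and 421 in DMSO and 228 with A-485 in SKMEL5 at 24 h, 455 and 570 against 284 in WM2664, and 2576 and 2203 against 1848 in A375. At 6 h its A-485 readings were 588, 527 and 2856 against DMSO pairs of 649 and 644, 578 and 555, and 2517 and 2551. The mean difference of LYAR went from -0.02 ± 0.10 at 6 h to -0.75 ± 0.10 at 24 h, a change of -0.73 ± 0.14 (adjusted p 0.00964). DDX21, a helicase that acts at polymerase I and II genes, had differences of -0.93 ± 0.09 in SKMEL5 and -0.66 ± 0.09 for WM2664 at 24 h. NCL, nucleolin, fell by 0.44 ± 0.05 and 0.26 ± 0.05. NPM1, nucleophosmin, is among the brightest readings here, with 10470 and 10880 against 9475 in SKMEL5 at 24 h (-0.17 ± 0.07, adjusted p 0.0925). Its other probe sets gave mean differences of -0.26 and -0.31 at 24 h, against -0.10 ± 0.04 for the brightest.

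The polyamine enzymes parted at 24 h. ODC1 read 2874 and 2874 in DMSO and 1840 with A-485 in SKMEL5 at 6 h, and 4120 and 4066 against 1321 at 24 h. In WM2664 it read 991 and 1070 against 867 at 6 h and 812 and 857 against 1005 at 24 h, and in A375 2391 and 2497 against 2129 and 1985 and 2302 against 2166. The SKMEL5 array of 24 h was far below its DMSO pair (-1.63 ± 0.09, adjusted p 1.60e-05), the WM2664 array was above its pair (0.27 ± 0.09, adjusted p 0.0609), and the A375 array lay between. The responses of WM2664 and SKMEL5 at 24 h differed by 1.90 ± 0.13 (adjusted p 0.000117). The mean call of ODC1 at 24 h (-0.45 ± 0.05) thus rested on 1 array: without the SKMEL5 A-485 array of 24 h the mean was 0.14.

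SRM, spermidine synthase, read 2080 and 1937 in DMSO and 835 with A-485 in SKMEL5 at 24 h, 2067 and 1948 against 1081 in WM2664, and 2997 and 2876 against 2885 in A375. The SKMEL5 and WM2664 arrays were below their pairs and the A375 array lay between. The falls were -1.26 ± 0.06 and -0.89 ± 0.06, against -0.03 ± 0.06 in A375, a difference of A375 from the other lines of 1.05 ± 0.08 (adjusted p 9.60e-05). At 6 h the mean difference of SRM was -0.11 ± 0.04 (adjusted p 0.0467), a call that ended without any 1 of 9 arrays.

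**Figure D2:**
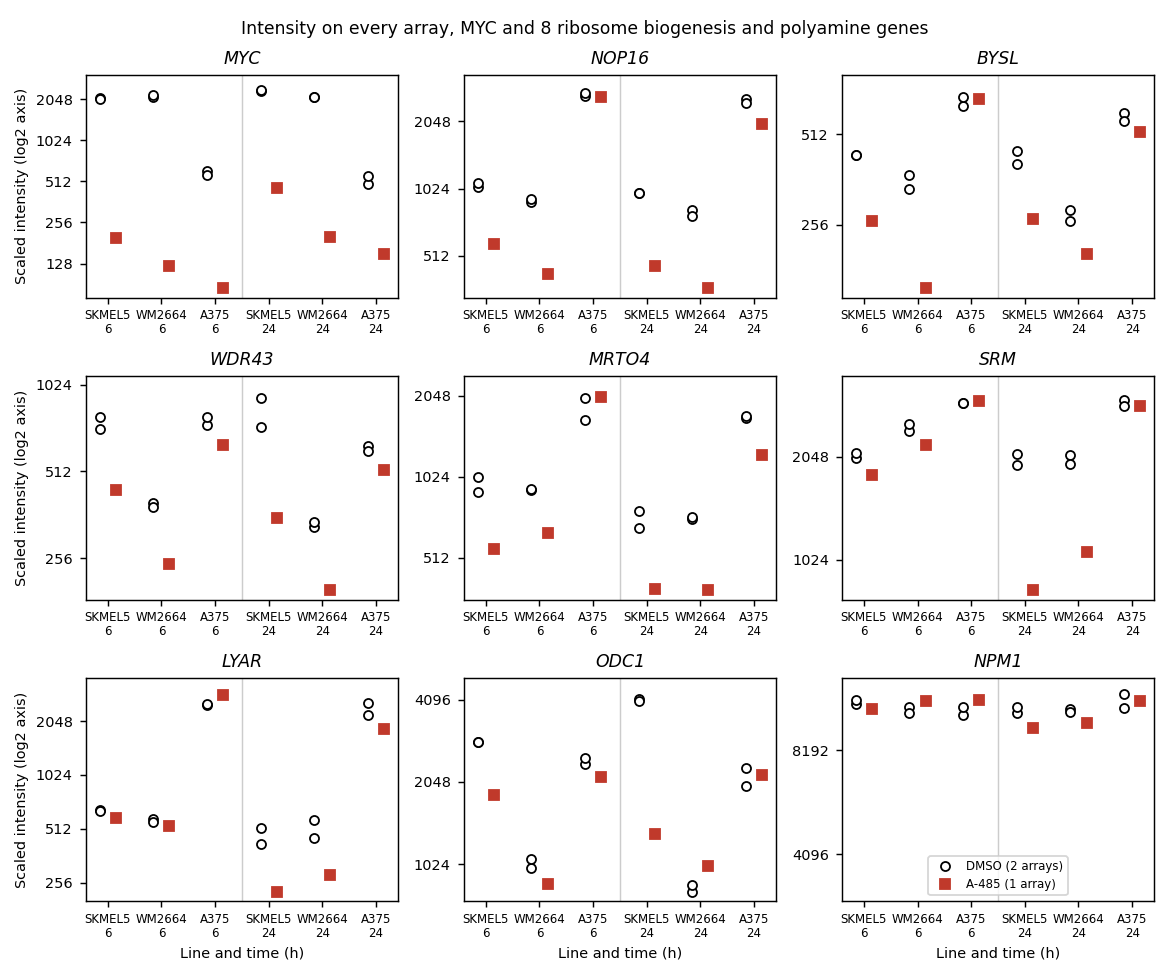
Scaled intensity (log2 axis) of MYC, 7 genes that were called and NPM1 on each of the 18 arrays, by line and time, with DMSO arrays as open circles and A-485 arrays as squares. MYC is lower with A-485 in all 6 groups, whereas BYSL and SRM in A375 lie beside their DMSO arrays at 6 h and ODC1 is far below only in SKMEL5.

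As a mean over lines, 15 of 36 genes were lower and 1 higher at 6 h (15.2% and 21.9% of all genes), and 28 were lower and none higher at 24 h (20.5% and 26.0%). The 15 genes lower at 6 h were lower at 24 h as well, 13 were lower at 24 h only, and 8 at neither time. The first group held POLR1B, NOLC1, BYSL, RCL1, WDR3, WDR43, GRWD1, MRTO4, NIP7, NOP16, NOP2, WDR12, DDX21, ODC1 and SRM. The genes lower at 24 h only were FBL, NOP58, RRP9, NHP2, GAR1, UTP20, HEATR1, PNO1, TSR1, DDX10, PES1, NCL and LYAR. The median of the 36 differences went from -0.06 to -0.41.

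The change from 6 h to 24 h was itself tested, and 17 genes were lower at 24 h than at 6 h and none was higher (11.1% of all genes were lower and 9.61% higher). The point estimate was lower at 24 h for 32 genes in SKMEL5, 28 in WM2664 and 33 in A375. MYC went the other way, up by 1.04 ± 0.12, 0.72 ± 0.12 and 0.98 ± 0.12 between the times in SKMEL5, WM2664 and A375. Within single lines, 13 genes were called lower at 24 h than at 6 h in SKMEL5 (7.25% of all genes), 4 in WM2664 (6.35%) and 2 in A375 (1.93%). BYSL and ODC1 in WM2664 and POLR1B in SKMEL5 were higher at 24 h than at 6 h, with 6.59% of all genes called so in SKMEL5 and 5.03% in WM2664.

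The 6 h mean rested more on single arrays than the 24 h mean did. Without the SKMEL5 A-485 array of 6 h, 10 genes were called at 6 h in place of 16, with the calls of WDR3, NOP2, WDR12, MRTO4, DDX21, SRM and TSR1 ended. Without the SKMEL5 A-485 array of 6 h or that of 24 h the change between the times had 9 calls in place of 17. The 24 h mean had 24 to 32 calls when any 1 array was left out, against 28 with all, and those of FBL, DDX10, PES1 and ODC1 each ended without at least 1 array. An additive fit of line and treatment, which puts the spread between lines into the error, called 6 genes at 6 h and 18 at 24 h. With the values as deposited the means had 2 lower and 3 higher genes at 6 h and 11 lower and none higher at 24 h, and the change between the times had 1.

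**Figure D3:**
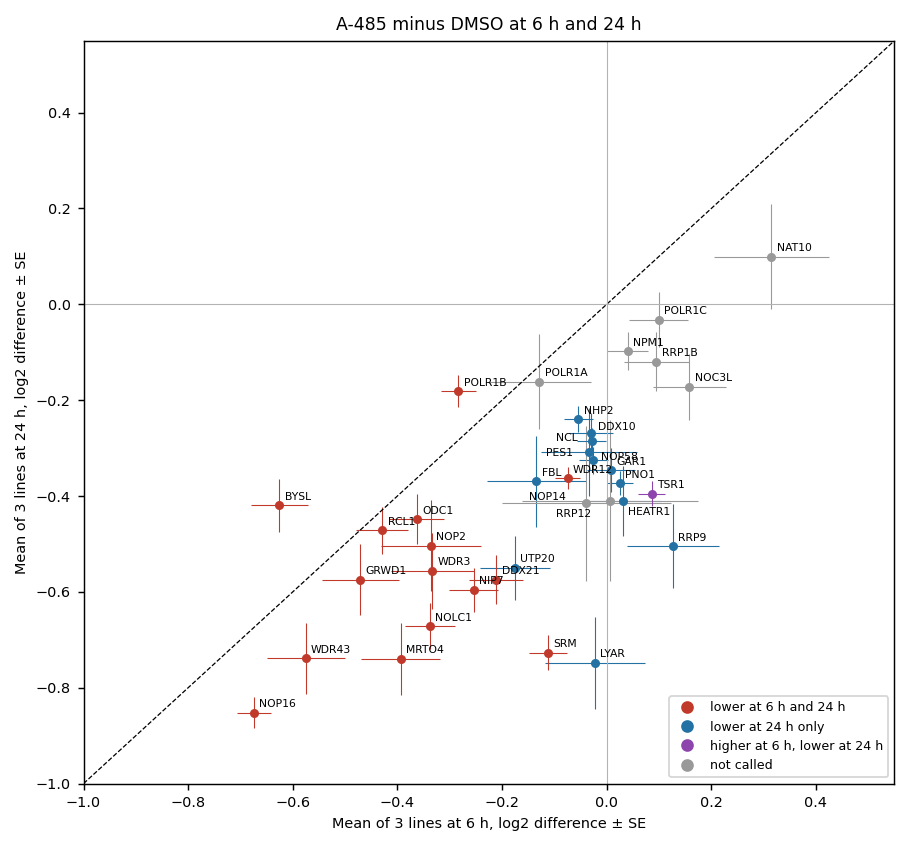
Mean log2 difference over the 3 lines at 6 h (horizontal) and at 24 h (vertical), both ± SE, for each of the 36 genes, with the diagonal of equal difference dashed. Most genes lie below the diagonal, and NOP16 lies lowest, at -0.67 and -0.85.

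The order of the genes was shared most between SKMEL5 and WM2664 at 6 h. Across the 36 genes, the differences of these lines correlated with a Pearson r of 0.72 and a Spearman rho of 0.75 (0.61 for all genes by Pearson), and at 24 h with an r of 0.34 (0.57 for all genes). SKMEL5 and A375 gave 0.32 at 6 h and 0.21 at 24 h (0.36 and 0.21 for all genes). Within a line the 6 h and 24 h differences correlated at 0.57 in SKMEL5, 0.61 in WM2664 and -0.04 in A375, where all genes gave 0.50, 0.64 and 0.62. These are correlations across genes, which are not independent replicates and share arrays, so they describe these arrays only.

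The response of A375 was tested against the mean of SKMEL5 and WM2664. The test called 6 genes at 6 h, all with the A375 difference above that of the other lines (5.6% of all genes were called in that direction and 6.32% in the other), namely BYSL (0.97 ± 0.12), NOP16 (0.95 ± 0.07), RCL1 (0.93 ± 0.10), MRTO4 (0.81 ± 0.16), GRWD1 (0.81 ± 0.16) and POLR1B (0.54 ± 0.07). In A375 itself these genes were not called at 6 h, with differences of 0.02, -0.04, 0.19, 0.15, 0.07 and 0.08 in that order. At 24 h it called 14 genes, again all in that direction (12.1% of all genes), led by SRM (1.05 ± 0.08), NOP16 (0.77 ± 0.07), WDR43 (0.73 ± 0.16), ODC1 (0.70 ± 0.11) and DDX21 (0.66 ± 0.11). Among the genes called at 24 h, ODC1 (0.02), NIP7 (-0.36) and TSR1 (-0.24) lay in A375 below WM2664 (0.27, -0.22 and -0.16) and above SKMEL5 only. The median difference between A375 and the other lines was 0.22 at 6 h and 0.30 at 24 h. With the values as deposited neither time had a call, and the fit to the 9 arrays of 24 h alone called 9 genes. SKMEL5 and WM2664 differed from each other for 1 gene at 6 h, RRP9, which was higher in WM2664 (2.66% of all genes were called in that direction and 2.89% in the other). They differed for 6 at 24 h, with larger falls in SKMEL5 for ODC1, NIP7, RRP9, TSR1 and SRM and a larger one in WM2664 for RCL1, whose call ended without any 1 of 10 DMSO arrays. Among all genes, 7.36% were called at 24 h in the direction of those 5 and 7.88% in that of RCL1. Without WM2664 DMSO replicate 2 of 24 h, 3 genes were called there.

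A375 also differed in DMSO. Its 4 DMSO arrays had 33 of 36 genes higher than the mean of the other lines and 2 lower, where 37.7% of all genes were higher and 32.9% lower, and the median difference was 0.90. NIP7 ranged from 299 to 352 in SKMEL5, from 298 to 409 in WM2664 and from 1495 to 1984 in A375, and LYAR from 421 to 649, from 455 to 578 and from 2203 to 2576. The ranges of A375 did not overlap those of the other lines for these genes, and the differences were 2.30 ± 0.04 and 2.18 ± 0.08. MYC was the reverse, at 2058 to 2385, 2105 to 2177 and 488 to 608, a difference of -1.97 ± 0.04. WDR12 (-0.08 ± 0.02) and POLR1A (-0.23 ± 0.09) were lower in A375, and NPM1 ranged from 10320 to 11870 over all 3 lines and was not called. The lines also differed in the melanocyte, fibroblast and epithelial markers given above, and the part of lineage in these differences was not tested. Between WM2664 and SKMEL5 in DMSO, 6 genes were higher in WM2664 and 17 lower (28.6% and 31.6% of all genes), with ODC1 (-1.89 ± 0.05) the furthest apart. DMSO levels moved a little with time too, with 11 genes lower and 1 higher at 24 h than at 6 h (7.17% and 6.98% of all genes), all but RRP9 by at most 0.29.

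**Figure D4:**
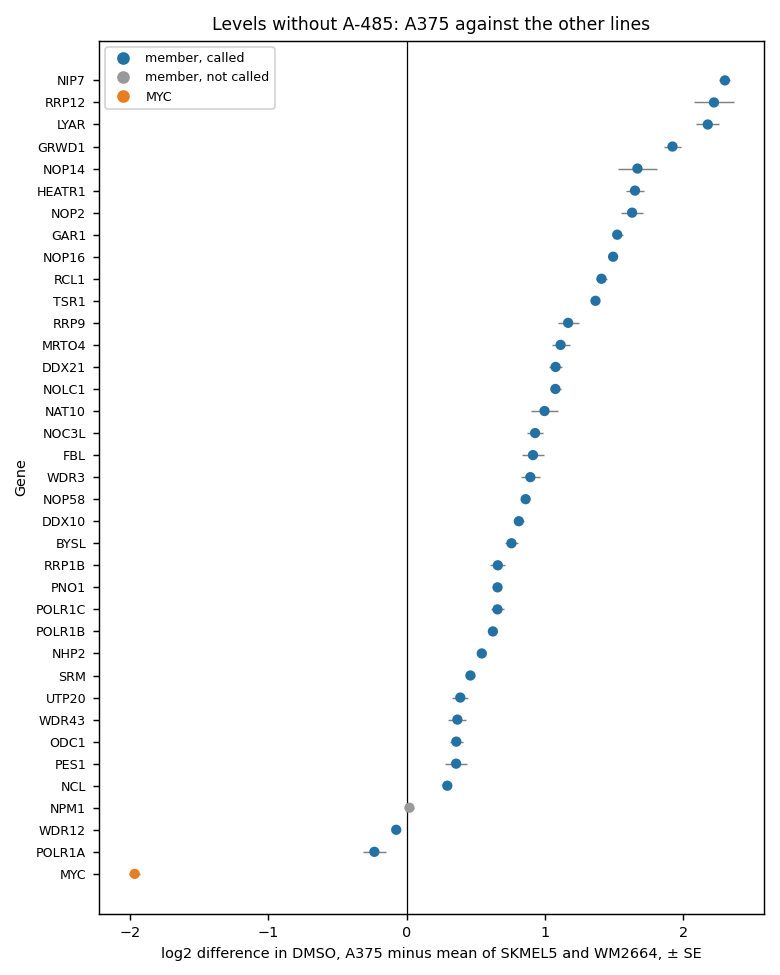
Log2 difference in DMSO, A375 minus the mean of SKMEL5 and WM2664, ± SE, for the 36 genes and MYC, in order of size. Members lie between -0.23 and 2.30, with 33 called higher in A375, and MYC lies at -1.97.

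A wider list of 109 other ribosome biogenesis genes was read beside the 36, covering polymerase I transcription, the small and the large subunit and the RNA exosome, and 108 were tested. At 6 h as a mean over lines, 14 of these were lower and 28 higher (15.2% and 21.9% of all genes were), with a median of 0.03. At 24 h 51 were lower and 8 higher (20.5% and 26.0% of all genes), with a median of -0.18. In single lines at 24 h, 48, 30 and 8 were lower in SKMEL5, WM2664 and A375, where 15.1%, 14.6% and 8.39% of all genes were. RRS1, a large subunit assembly factor, fell at both times (-0.71 ± 0.06 and -0.75 ± 0.06), as did PAK1IP1 (-0.34 ± 0.05 and -0.69 ± 0.05) and WDR74 (-0.32 ± 0.09 and -0.58 ± 0.09), which also act in large subunit assembly. Other genes rose at 6 h, among them TAF1A, a subunit of the polymerase I selectivity factor (0.62 ± 0.04, and -0.07 ± 0.04 at 24 h), the exosome subunit EXOSC6 (0.50 ± 0.06) and the helicase DDX52 (0.41 ± 0.04). In DMSO, 91 of the 108 were higher in A375 and 7 lower (37.7% and 32.9% of all genes).

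The cytosolic ribosomal proteins themselves had few called differences. Of 56 tested, limma called none in any line at 6 h, and 0, 1 and 2 had an unadjusted p under 0.05 in SKMEL5, WM2664 and A375. Their medians at 6 h lay between -0.01 and 0.00. At 24 h as a mean over lines, 1 was higher, FAU (0.09 ± 0.03), and 1 lower, RPS27L (-0.16 ± 0.03), where 26.0% and 20.5% of all genes were, and the median was 0.03. In single lines at 24 h, 1 was lower in SKMEL5 (15.1% of all genes), 1 in WM2664 (14.6%) and 0 in A375 (8.39%). None was higher in any line (20.1%, 17.6% and 9.05% of all genes). With an unadjusted p under 0.05 from limma, 1, 6 and 0 were higher and 2, 1 and 1 lower in SKMEL5, WM2664 and A375.

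Beyond ODC1 and SRM, 15 further polyamine genes were tested, of which 4 were lower and 2 higher at 6 h as a mean over lines (15.2% and 21.9% of all genes) and 6 lower and 2 higher at 24 h (20.5% and 26.0%). AMD1, which supplies decarboxylated S-adenosylmethionine to spermidine synthase, fell in every line, by 0.70 ± 0.03 at 6 h and 0.85 ± 0.03 at 24 h as a mean on the log2 scale. SLC3A2, the heavy chain of several amino acid transporters, fell in every line as well (-0.79 ± 0.04 and -1.48 ± 0.04), and the antizyme OAZ2, which restrains ornithine decarboxylase, rose (0.37 ± 0.11 and 0.72 ± 0.11). In the MYC network, with 10 genes tested including MYC, the MYC antagonist MXD1 rose in every line, by 2.55 ± 0.15 and 2.11 ± 0.15 in SKMEL5 and 1.37 ± 0.15 and 1.13 ± 0.15 in A375 at 6 h and 24 h. In WM2664 MXD1 was at the floor on 1 of 2 DMSO arrays at each time, so its rise there (2.87 and 2.16) is not exact. As means over lines, MNT, another antagonist, fell at 6 h (-0.98 ± 0.13), and MAX rose by 0.09 ± 0.03 at 6 h. MLXIP fell at both times as such a mean (-0.73 ± 0.07 and -0.57 ± 0.07), but not in A375. There it read 240 and 260 in DMSO against 259 at 6 h, and 271 and 288 against 310 at 24 h. MXI1, a further MYC antagonist, had DMSO medians of 1640, 2229 and 366 in SKMEL5, WM2664 and A375, against 73.7, 32.9 and 156 for MXD1. MXI1 read lower with A-485 in SKMEL5 and WM2664. At 6 h it read 1497 and 1488 in DMSO against 945 in SKMEL5, and 2210 and 2223 against 937 in WM2664. At 24 h the readings were 1845 and 1782 against 1276, and 2234 and 2295 against 1043. In A375 it read 358 and 342 against 370 at 6 h, and 379 and 374 against 422 at 24 h.

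**Figure D5:**
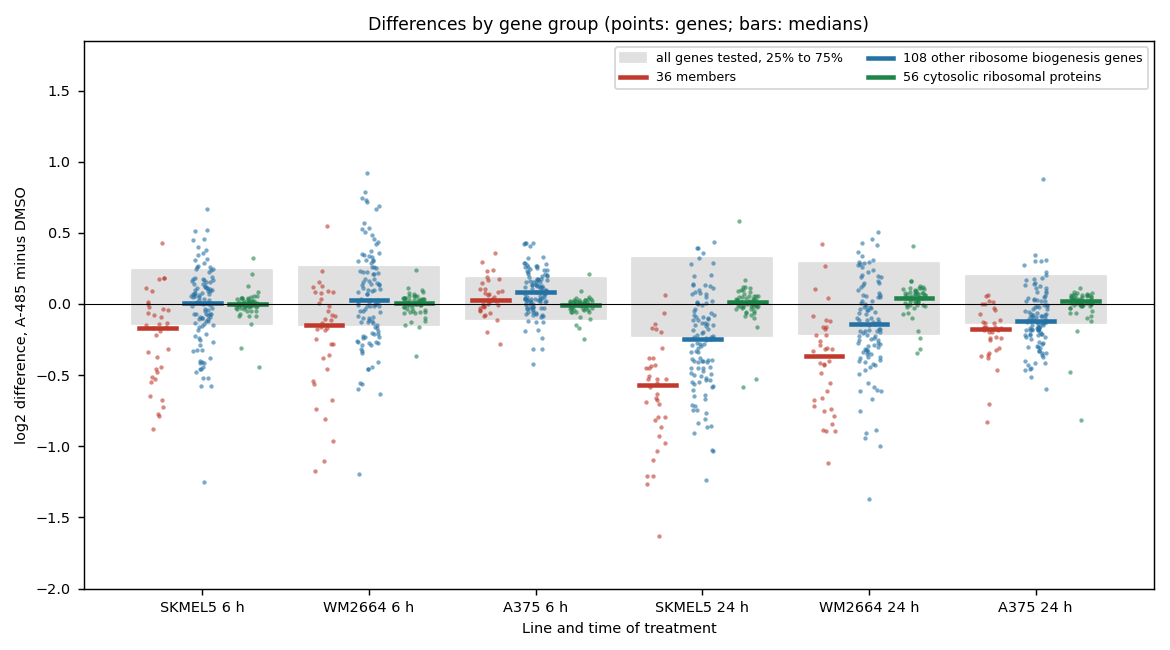
Log2 difference, A-485 minus DMSO, per gene (points) with the median of each group (bars), for the 36 genes, 108 other ribosome biogenesis genes and 56 cytosolic ribosomal proteins in each line and time, with the middle 50% of all genes tested as a grey band. The bars of the 36 genes are lowest in SKMEL5 at 24 h, at -0.57, and those of the ribosomal proteins stay within 0.05 of 0.

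Probe sets of a gene did not always move alike, including at 24 h. Among the 16 members with several probe sets above the floor, HEATR1, NPM1, PNO1, POLR1B, RRP12 and TSR1 had sets of opposite sign for the mean at 6 h, and RRP1B at 24 h. Without the probe sets that can match several transcripts, the 24 h mean calls of POLR1B, WDR3, RCL1, TSR1, MRTO4 and NCL ended. So did the lower 6 h mean calls of POLR1B, WDR3, RCL1 and MRTO4. For RCL1, NCL and WDR3 the set left was at the floor on 18, 17 and 14 of the 18 arrays, so their calls had to end. Another RCL1 set, among those left out, gave -0.66 as the mean at 24 h.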

How the data were processed

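RNA from 18 samples was read on 1-colour Affymetrix arrays. The table the authors deposited holds linear intensities per probe set; between 19.35% and 22.89% of an array's values were below 0, medians ran from 19.53 to 29.0, and the software behind them is not given in the sources used here. The platform annotation gave 41091 of the 54613 probe sets 1 symbol, 1801 several and 11721 none; symbols of 41037 were updated by Entrez identifier.

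Intensities were quantile normalized on the linear scale, raised to a floor of 32 and log2-transformed. The brightest probe set stood for each of 19775 genes, and genes with a mean below 5.007, the 40th percentile over probe sets, were dropped, leaving 14130. limma 3.58.1 in R 4.3.3 fitted means of 12 groups, taken from the sample titles, with 6 residual degrees of freedom, all from DMSO pairs, and 1.22 prior ones. Adjusted p-values are Benjamini-Hochberg within each of 19 contrasts. The fit was tested on simulated data.

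The members and lists were chosen with earlier results of these data known. All 43 members may be named, and from each other list up to 3 called genes per direction with the largest mean difference at 6 h, and any gene of the MYC network and the polyamine list; FAU and RPS27L were named after their values were seen. Alternatives covered scaling, floor, filter, probe set choice, the fit and leaving out arrays.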

Additional observations from a re-analysis of the deposited data

Results flagged for a closer look

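The values here are differences between responses to A-485, each tested as a contrast of contrasts in limma and past an adjusted p of 0.05; no explanation of them was tested.

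Between the times, as a mean over lines, 24 h minus 6 h differed for MYC (0.91), NOP58 (-0.30), RRP9 (-0.63), NOLC1 (-0.33), NHP2 (-0.19), GAR1 (-0.35), UTP20 (-0.37), HEATR1 (-0.44), PNO1 (-0.40), TSR1 (-0.48), DDX10 (-0.24), NOP16 (-0.18), WDR12 (-0.29), NIP7 (-0.34), NCL (-0.26), DDX21 (-0.36), LYAR (-0.73) and SRM (-0.62). In SKMEL5 alone it differed for MYC (1.04), POLR1B (0.35), NOP58 (-0.53), NOLC1 (-0.50), NHP2 (-0.36), GAR1 (-0.52), PNO1 (-0.54), TSR1 (-0.88), WDR12 (-0.27), NIP7 (-0.84), NCL (-0.36), DDX21 (-0.48), LYAR (-0.90), ODC1 (-0.99) and SRM (-1.08), in WM2664 for MYC (0.72), BYSL (0.75), PNO1 (-0.52), WDR12 (-0.47), NCL (-0.27), ODC1 (0.52) and SRM (-0.72), and in A375 for MYC (0.98), RRP9 (-1.12) and TSR1 (-0.32). MYC is the gene of this list whose fall shrank in every line, while most of the others fell further.

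Between the lines, A375 minus the other lines' mean differed at 6 h for MYC (0.97), POLR1B (0.54), BYSL (0.97), RCL1 (0.93), NOP16 (0.95), MRTO4 (0.81) and GRWD1 (0.81), and at 24 h for MYC (1.07), NOP58 (0.29), NOLC1 (0.53), NHP2 (0.46), WDR43 (0.73), PNO1 (0.40), RCL1 (0.60), TSR1 (0.24), DDX10 (0.42), NOP16 (0.77), WDR12 (0.29), NIP7 (0.36), DDX21 (0.66), ODC1 (0.70) and SRM (1.05). All of these are positive: in A375 these genes fell less than the mean of the other lines or were not below DMSO. At 24 h the A375 differences of TSR1 (-0.24), NIP7 (-0.36) and ODC1 (0.02) were nevertheless below those of WM2664 (-0.16, -0.22 and 0.27). WM2664 minus SKMEL5 differed at 6 h for MYC (-0.71) and RRP9 (1.00), and at 24 h for MYC (-1.03), RRP9 (0.90), RCL1 (-0.44), TSR1 (0.63), NIP7 (0.99), ODC1 (1.90) and SRM (0.37). RRP9 was near the floor in WM2664, so the size of its difference is not exact. The size for NIP7 depended on the probe set, and a slightly dimmer one gave -0.63 in SKMEL5 and -0.40 in WM2664 at 24 h.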

How the results depend on the processing

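Of 174 called differences of the 36 genes and MYC in the 11 main comparisons, 130 stayed called when any 1 array was left out. Leaving out a line's only A-485 array of a time removes the comparisons that need it, so those calls were not tested against its loss. A stricter filter kept 165, no filter 163, robust variance moderation 173, scaling to the 75th percentile 161 and averaged probe sets 148. Floors of 1, 16 and 64 kept 151, 157 and 172. Leaving out the 3 DMSO arrays that carry another line's transcripts kept 130. Leaving out the probe sets that can match several transcripts kept 133. The fit to 9 arrays of a time kept 127 of 156, and the additive fit 25 of 46. Leaving out 1 array gave 11 to 15 called genes in SKMEL5 at 6 h, 8 to 13 in WM2664, 0 to 0 in A375, 26 to 28, 19 to 22 and 5 to 11 at 24 h, 10 to 18 and 24 to 32 for the means at 6 h and 24 h, 9 to 19 for the change between the times, and 6 to 9 and 13 to 17 for A375 against the other lines. It gave 0 to 2 and 3 to 8 for WM2664 against SKMEL5, 10 to 16, 4 to 7 and 0 to 2 for the change within SKMEL5, WM2664 and A375, and 34 to 35, 21 to 24 and 8 to 13 for the DMSO comparisons.

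Values as deposited, which carry scale differences between arrays, gave 0, 1, 9, 0 and 0 called genes in SKMEL5 and WM2664 at 6 h and in SKMEL5, WM2664 and A375 at 24 h, 5 and 11 for the means, 1 for the change between the times and 0 and 0 for A375 against the others; 32 of the 174 calls stayed. The share of lower calls among all genes at 6 h as a mean went from 40.89% to 15.03%. A375 at 24 h had 3 calls with a floor of 1, 4 with a floor of 16, 4 with probe sets averaged, 1 in the fit to 9 arrays of that time and 4 without the 3 arrays that carry another line's transcripts, where WM2664 at 6 h had 7. The fit to 9 arrays gave 9 for A375 against the others at 24 h, and the additive fit 6 and 18 for the means. Why these counts moved was not tested.

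Same-numbered samples did not deviate together (15 pairs, r from -0.036 to 0.060, none over 0.1), so the numbers were not taken to pair them. With the replicate block A375 at 24 h had 5 calls in place of 8, and 163 of 174 calls stayed.

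These differences, called in at least 1 of the settings, changed sign. As deposited: WDR12 in SKMEL5 at 6 h 0.12; POLR1B 0.11, NHP2 0.13 and NIP7 0.23 in WM2664 at 6 h; GAR1 0.013, TSR1 0.17 and DDX10 0.020 in WM2664 at 24 h; POLR1B 0.0002, WDR12 0.13, NIP7 0.042 and SRM 0.077 for the 6 h mean; POLR1B -0.060 for the change in SKMEL5; WDR12 0.26 in DMSO (A375) and SRM -0.058 (WM2664). Scaled to the 75th percentile, WDR12 was 0.043 in DMSO (A375) and NOP58 -0.10 (WM2664). With probe sets averaged, WDR12 was 0.053 in A375 at 24 h, TSR1 -0.040 for the 6 h mean, POLR1B -0.047 for the change in SKMEL5, and NOLC1 -0.32, TSR1 0.35, WDR12 0.25 and MRTO4 0.43 between WM2664 and SKMEL5 in DMSO. Without the probe sets that can match several transcripts, MRTO4 was 0.052 in SKMEL5 at 24 h, POLR1B 0.042 and PNO1 -0.28 for the 6 h mean, NCL 0.021 for the change between the times, TSR1 -0.25 for WM2664 against SKMEL5 at 24 h, POLR1B -0.34 for the change in SKMEL5, PNO1 -0.21 in DMSO (A375), and POLR1B 0.63, RRP12 0.086, TSR1 1.22 and MRTO4 0.89 between WM2664 and SKMEL5 in DMSO. Leaving out 1 array, the ODC1 mean at 24 h ran from -0.81 to 0.14, the latter without the SKMEL5 A-485 array, and its change between the times from -0.39 to 0.37, the latter without the SKMEL5 A-485 array of either time. Dim genes such as RRP9 are limited by signal near the floor.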
